A study of Homo sapiens with 6 samples.

Results

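The subject here is 39 human genes that make serine, move one-carbon units on folate, and build purine and pyrimidine nucleotides. They were taken as a named list, split into 5 branches: serine synthesis (3 genes), cytosolic folate (5), mitochondrial folate with glycine cleavage (10), purine (12) and pyrimidine with thymidylate (9). All 39 were among the 22580 genes tested and passed the filter on low counts, out of 58523 genes with summed counts. The cells are A375, an established human melanoma line, grown in serum-containing medium. In 3 cultures the cells were treated for 24 h with hMGL, an engineered human enzyme that degrades methionine (treated replicates 4, 5 and 6), and 3 cultures were left untreated (control replicates 1, 2 and 3). The labels give dishes of a single line and no more on how far apart the replicates were grown, so p-values measure the spread between these dishes.

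Cells make serine from a glycolytic intermediate in a short chain of reactions and then break it into glycine and a one-carbon unit carried by folate. The cytosol and the mitochondria each hold a set of these folate enzymes, and the units are spent on purine rings, on thymidylate and on the methyl group of methionine. Nucleotides are built either from small precursors (de novo) or by salvage of bases and nucleosides, and dividing cells need nucleotides for RNA and DNA. Several of these genes are known targets of the amino acid response factor ATF4, others of MYC, and those of thymidylate synthesis of the E2F factors of S phase.

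Libraries held 50760266 to 53682075 estimated counts in treated cells and 53441686 to 59954677 in control cells. Levels are CPM, estimated counts per 1e6 of a library size adjusted with TMM factors (trimmed means of M values), and levels of different genes are set side by side only as TPM, which is per transcript length. The gene RN7SL1 took 18.51% to 22.06% of all TPM in treated and 16.1% to 19.35% in control libraries. This share comes out of the TPM of all other genes in a library. Means are given ± SD over 3 libraries a group. Changes are treated over control, relative to the typical gene of the library, and in bulk RNA fewer cells of a kind and less RNA per cell cannot be told apart. Of 8 melanocyte and melanoma markers, the summed level was 468.3 to 482.6 CPM in treated and 610.8 to 678.6 CPM in control libraries, mostly SOX10 and PRAME. TYR did not pass the filter, and PMEL, MLANA and DCT had means under 3 CPM. Of the 7 markers tested, 3 fell, 2 rose (PMEL and DCT) and 2 did not pass. The largest change was in S100B, at 5.83 ± 1.12 CPM in treated and 38.6 ± 0.831 CPM in control cells, a 6.61-fold fall. Markers of other cells were low, with summed levels per library of 2.20 to 2.93 CPM in treated and 6.62 to 7.88 CPM in control cells for leukocytes (mostly LYZ), 2.43 to 2.62 CPM in treated and 5.30 to 5.33 CPM in control cells for fibroblasts, 2.52 to 2.81 CPM in treated and 0.872 to 1.52 CPM in control cells for endothelium, and 1.16 to 1.63 CPM in treated and 0.494 to 0.613 CPM in control cells for epithelium. These sums differed between the groups, and their part in the results was not tested.

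Treated cells had less mRNA of most nucleotide synthesis genes and of 3 of the 5 cytosolic folate genes, and more mRNA of 7 of the 10 mitochondrial folate genes. When only protein-coding transcripts were counted, 3 of the 7 rose, and AMT, another of the 10, did not reach the filter on low counts. Of the 39 genes, 35 passed edgeR's quasi-likelihood test at an adjusted p under 0.05, against 69.4% of all genes tested. Of these 22 fell and 13 rose, where 34.5% of all genes fell and 34.9% rose. At least 2-fold falls numbered 9 (12.6% of all genes), and 1 rise was at least 2-fold, that of MTHFD2L (14.6% of all genes). The median log2 fold change of the 39 was −0.56, against −0.02 for all genes tested. ALDH1L1, AMT, FPGS and PFAS did not pass. For 36 of the 39 genes the treated and control libraries did not overlap in CPM, which holds for 73.3% of all genes. By branch, purine genes had 9 falls and 2 rises (median log2 fold change −0.83), pyrimidine genes 7 and 2 (−0.63), cytosolic folate 3 and 0 (−0.61), mitochondrial folate 2 and 7 (0.46), and serine synthesis 1 and 2 (0.36). When the test asked for more than a 1.5-fold change, 15 of the 35 calls ended, leaving 5 rises and 15 falls among the 39 genes.

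**Figure D1:**
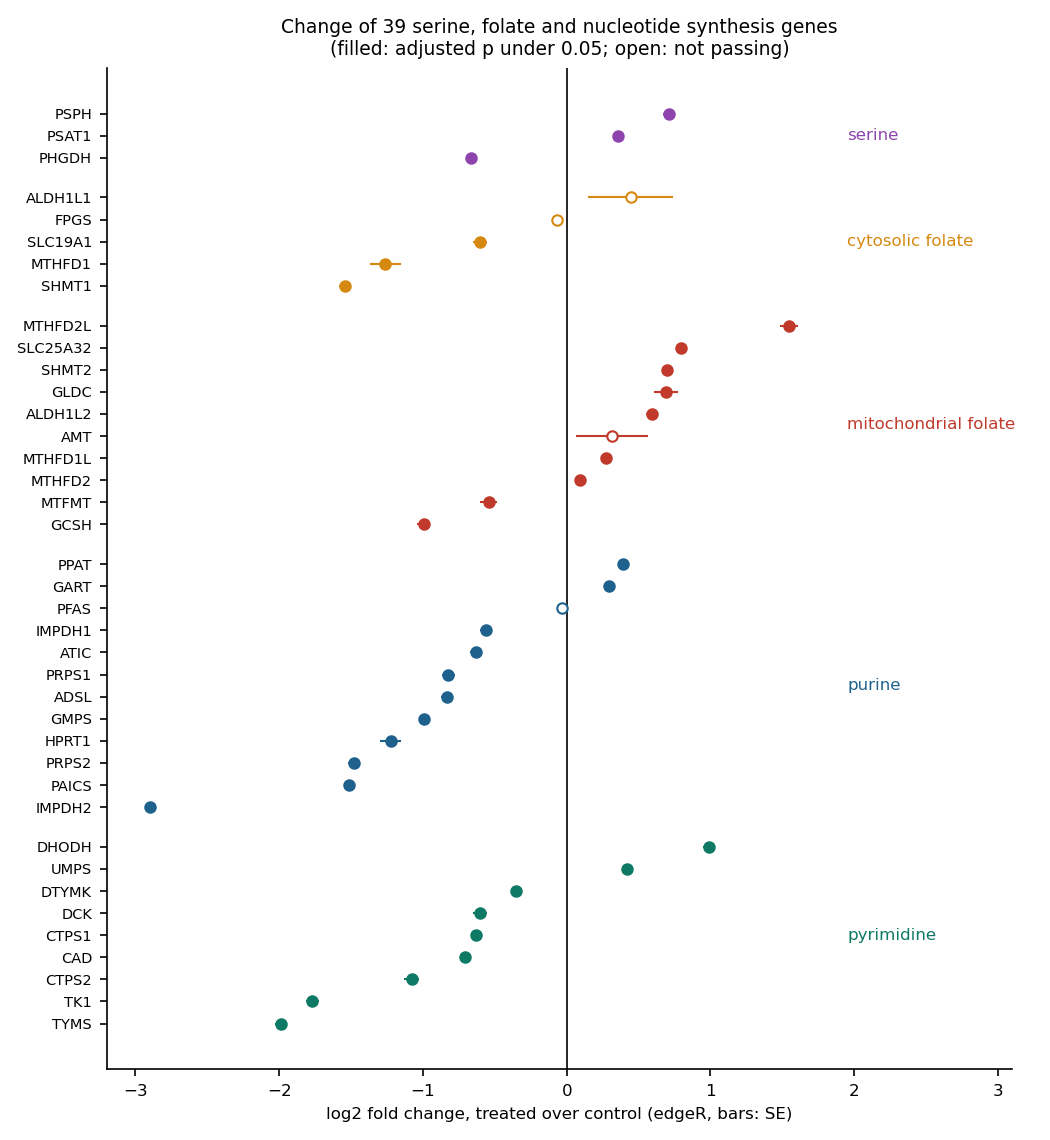
Log2 fold change of each of the 39 genes, treated over control (horizontal axis, points with SE bars from edgeR), by branch from top to bottom. Filled points passed the threshold and open points did not; the deepest fall is IMPDH2 at −2.90, and 7 of the 10 mitochondrial folate genes lie right of 0 with filled points.

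Serine synthesis was split by step. PHGDH, which takes the glycolytic intermediate into the pathway in its first step, had 122, 128 and 125 CPM in treated cells, against 202, 191 and 201 CPM in control cells. It fell 1.58-fold (adjusted p = 2.63e-12 in edgeR). PSAT1, the aminotransferase of the middle step, averaged 144 ± 2.12 CPM in treated and 112 ± 1.64 CPM in control cells and rose 1.28-fold. PSPH, the phosphatase that releases serine, had 54.9, 55.0 and 53.0 CPM in treated cells, against 33.0, 32.1 and 34.5 CPM in control cells. In both PSAT1 and PSPH every treated library lay above every control library, and PSPH rose 1.64-fold, a log2 fold change of 0.71 ± 0.039 (SE). Per transcript length, PHGDH had 55.7 ± 2.82 TPM in treated and 76.9 ± 4.06 TPM in control cells and PSAT1 66.1 ± 3.69 TPM in treated and 47.6 ± 2.94 TPM in control cells. So PHGDH was the higher of these in control cells, while PSAT1 was the higher in treated cells. Transcripts annotated as targets of nonsense-mediated decay held 49.7% of the PSPH counts in treated and 51.0% in control cells.

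In the cytosolic folate branch, SHMT1, MTHFD1 and SLC19A1 fell. SHMT1, the cytosolic serine hydroxymethyltransferase (ENSG00000176974, chromosome 17 at 18327860 to 18363563, GENCODE 29 on GRCh38), had 21.7, 20.8 and 21.6 CPM in treated cells, against 64.6, 59.6 and 62.5 CPM in control cells. The groups were far apart, with a 2.91-fold fall (adjusted p = 7.95e-16 in edgeR). MTHFD1, the trifunctional enzyme that interconverts folate forms in the cytosol, had 13.9, 12.3 and 10.3 CPM in treated cells, against 30.8, 28.0 and 28.8 CPM in control cells. The treated libraries were the more scattered here, and all lay below the control libraries, 2.40-fold lower (adjusted p = 2.58e-05 in edgeR). Its log2 fold change of −1.26 was −0.81 with limma on log2(TPM + 1), and a retained-intron transcript held 42.6% of its counts in treated and 39.6% in control cells. SLC19A1, the reduced folate carrier of the plasma membrane, averaged 16.3 ± 0.181 CPM in treated and 24.8 ± 0.974 CPM in control cells. It fell by 0.61 on the log2 scale, and by 0.33 with limma on log2(TPM + 1). FPGS, which adds glutamate tails that keep folate inside the cell, averaged 52.5 ± 0.687 CPM in treated and 55.1 ± 1.41 CPM in control cells and did not pass (adjusted p = 0.102 in edgeR). ALDH1L1, which oxidises formyl-folate in the cytosol, was barely present, at 0.658, 0.617 and 0.4502 CPM in treated cells, against 0.309, 0.394 and 0.568 CPM in control cells. Its groups overlapped (adjusted p = 0.196 in edgeR), and retained-intron and other non-coding transcripts held 65.5% of its counts in treated and 97.4% in control cells.

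The mitochondrial set moved the other way for 7 of its 10 genes over all transcripts, and for fewer with protein-coding transcripts only. SHMT2, which breaks down serine in the mitochondria (ENSG00000182199, chromosome 12 at 57229327 to 57234935), had 467, 482 and 481 CPM in treated cells, against 305, 284 and 293 CPM in control cells. Every treated library was above every control library, 1.62-fold higher (adjusted p = 6.85e-13 in edgeR). The rise of SHMT2 was smaller with protein-coding transcripts only. SLC25A32, which carries folate into the mitochondria, averaged 127 ± 0.803 CPM in treated and 73.2 ± 2.04 CPM in control cells and rose 1.73-fold. MTHFD1L, the mitochondrial enzyme that releases formate for export, had 72.4, 74.9 and 75.6 CPM in treated cells, against 64.0, 60.7 and 59.7 CPM in control cells. This was a rise of 1.21-fold, small but without overlap. ALDH1L2, which oxidises formyl-folate to carbon dioxide in mitochondria, had 34.4, 37.3 and 33.8 CPM in treated cells, against 23.3, 23.2 and 23.4 CPM in control cells. It rose 1.51-fold, a call lost with protein-coding transcripts only (log2 fold change 0.49, adjusted p = 0.0509 in edgeR).

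MTHFD2 and MTHFD2L are the paralogous dehydrogenases of the middle step of the mitochondrial pathway. MTHFD2, which many tumour cells carry at a high level, had 169, 166 and 167 CPM in treated cells, against 155, 154 and 163 CPM in control cells. The groups stood just apart, a 1.07-fold difference (adjusted p = 0.0132 in edgeR) that did not pass with limma on log2(TPM + 1) (adjusted p = 0.085), with effective transcript length as an offset (0.0827) or with protein-coding transcripts only (0.129). Of the MTHFD2 counts, protein-coding transcripts held only 23.3% in treated and 21.2% in control cells. Transcripts annotated as targets of nonsense-mediated decay held 48.4% in treated and 49.5% in control cells. MTHFD2L (ENSG00000163738, chromosome 4 at 74114174 to 74303099) had 25.8, 25.2 and 26.6 CPM in treated cells, against 9.45, 8.96 and 8.10 CPM in control cells. Its rise of 2.92-fold was the largest among the 39 genes (adjusted p = 1.93e-13 in edgeR). With protein-coding transcripts only, the log2 fold change of MTHFD2L was 0.29 in place of 1.55 and did not pass (adjusted p = 0.183 in edgeR).

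The window around the start of MTHFD1L is shown because it alone, among the 32 of 39 genes with a promoter in the RefSeq table (GRCh38.p14), held TGATGNAA, the core of the composite element bound by ATF4 with C/EBP factors. The windows run from 250 bases before to 50 bases after the start, and that of MTHFD1L is chr6:150866236-150866535 on the plus strand. Capitals mark TGATGCAA and, upstream of it, the E-box CACGTG, which MYC and other factors bind. Both lie upstream of the start in the RefSeq table. The GENCODE start of the most abundant coding transcript, MTHFD1L-212, is 150866333. That start lies within the E-box and upstream of TGATGCAA, so TGATGCAA is inside this transcript's span.
MTHFD1L: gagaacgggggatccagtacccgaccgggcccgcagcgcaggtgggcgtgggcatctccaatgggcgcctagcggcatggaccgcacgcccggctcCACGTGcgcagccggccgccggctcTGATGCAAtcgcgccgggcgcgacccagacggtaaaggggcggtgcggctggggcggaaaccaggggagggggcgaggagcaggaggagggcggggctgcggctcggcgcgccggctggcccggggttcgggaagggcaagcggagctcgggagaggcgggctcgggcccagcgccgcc
Both strands were searched, and the motifs did not overlap each other. TGATGNAA was in 1 of the 32 windows and in 3.67% of 27305 promoters, CACGTG in 6 of 32 and in 7.43%, and the E2F-type motif TTTNNCGC in 4 of 32 and in 6.9%. In 21 of the 32 windows lay the start of the gene's most abundant protein-coding transcript. PSPH, SHMT2, ALDH1L2, SLC25A32, MTFMT, ADSL and IMPDH2 had no entry.

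The glycine cleavage system, a mitochondrial complex that takes apart glycine to load folate, did not move as a unit. GLDC, its decarboxylase, averaged 27.8 ± 0.752 CPM in treated and 17.2 ± 2.25 CPM in control cells and rose 1.62-fold, a call lost with protein-coding transcripts only (log2 fold change 0.31, adjusted p = 0.0842 in edgeR). GCSH, the lipoate-bearing carrier of the complex, averaged 25.4 ± 1.34 CPM in treated and 50.7 ± 1.78 CPM in control cells and fell by 1.00 on the log2 scale. AMT, its aminomethyltransferase, averaged 1.82 ± 0.0870 CPM in treated and 1.47 ± 0.579 CPM in control cells with overlapping groups (adjusted p = 0.286 in edgeR). AMT passed when control replicate 2 was left out, at a log2 fold change of 0.62 (adjusted p = 0.025 in edgeR). MTFMT, which puts a formyl group on the mitochondrial initiator methionyl-tRNA, averaged 12.4 ± 0.715 CPM in treated and 18.0 ± 0.0953 CPM in control cells and fell by 0.54 on the log2 scale, and by 0.83 with protein-coding transcripts only. GCSH transcripts annotated for decay held 58.6% of its counts in treated and 57.0% in control cells, and 2 unnamed protein-coding genes on the same strand overlap GCSH, so its split of reads is uncertain.

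**Figure D2:**
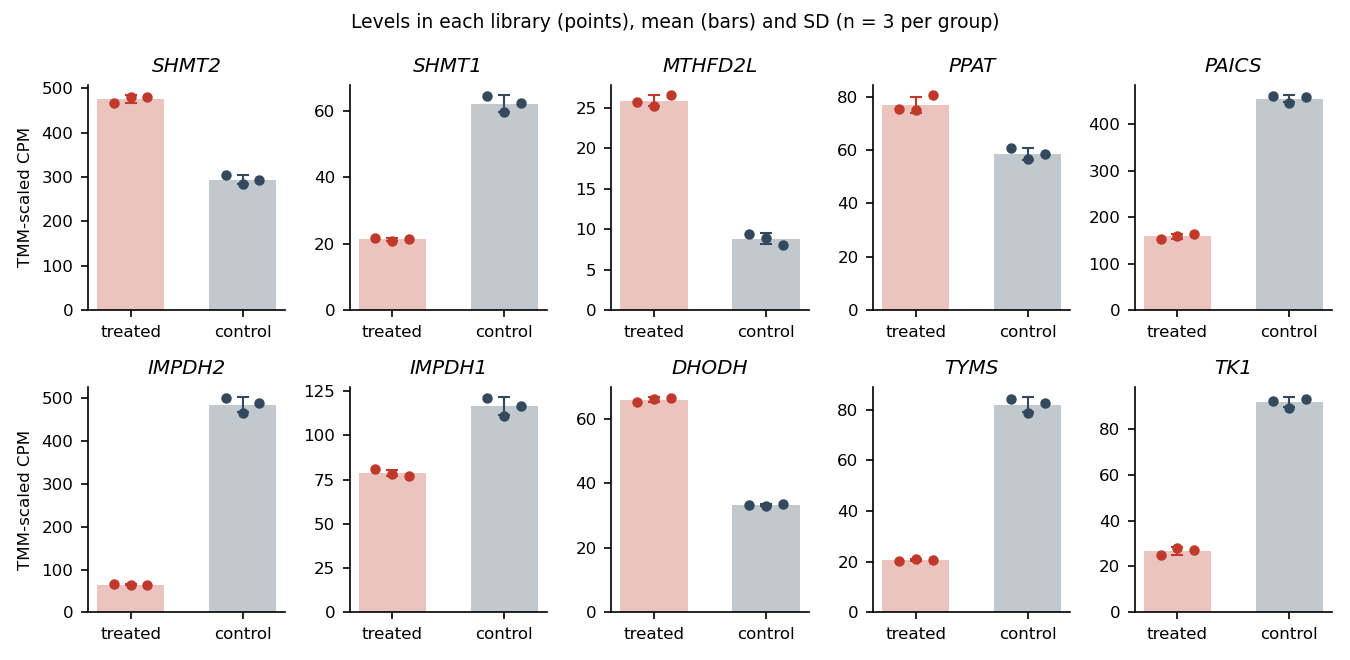
TMM-scaled CPM (vertical axes, each starting at 0) of 10 genes in the 3 treated and 3 control libraries, as points with the mean (bar) and SD. In each of the 10 genes no treated library overlaps a control library; SHMT2, MTHFD2L, PPAT and DHODH are higher in treated cells and the other 6 are lower.

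In the purine branch, the opening steps were split. PRPS1 and PRPS2 make phosphoribosyl pyrophosphate, the sugar on which purines are built. PRPS2 (ENSG00000101911, chromosome X at 12791355 to 12824222) had 36.6, 39.2 and 37.9 CPM in treated cells, against 109, 103 and 105 CPM in control cells, a 2.79-fold fall without overlap (adjusted p = 5.43e-16 in edgeR). PRPS1 had 21.9, 22.6 and 22.9 CPM in treated cells, against 38.0, 39.01 and 42.4 CPM in control cells and fell 1.77-fold. PPAT, which commits the sugar to purine synthesis, had 75.4, 75.2 and 80.6 CPM in treated cells, against 60.8, 56.6 and 58.5 CPM in control cells. It rose 1.31-fold (adjusted p = 6.64e-08 in edgeR). GART, which carries several early steps including a folate-dependent formyl transfer, averaged 302 ± 12.7 CPM in treated and 246 ± 8.40 CPM in control cells and rose 1.23-fold. PFAS, whose step lies between those of GART, averaged 150.03 ± 1.11 CPM in treated and 154 ± 3.82 CPM in control cells and did not pass (adjusted p = 0.317 in edgeR). Its direction depended on the scale: PFAS was higher with an offset for effective length (log2 fold change 0.15, adjusted p = 0.00297) and lower with protein-coding transcripts only (−0.12, adjusted p = 0.00131).

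The later steps of de novo synthesis fell. PAICS (ENSG00000128050, chromosome 4 at 56435741 to 56464579), a bifunctional enzyme of the middle of the pathway, had 153, 160.3 and 164 CPM in treated cells, against 459, 445 and 458 CPM in control cells. That is a 2.85-fold fall (adjusted p = 3.10e-17 in edgeR). ADSL, which releases fumarate in the purine pathway, averaged 45.0 ± 3.01 CPM in treated and 80.2 ± 0.576 CPM in control cells and fell 1.78-fold. ATIC, which uses formyl-folate to close the ring, averaged 28.8 ± 0.223 CPM in treated and 44.6 ± 2.02 CPM in control cells and fell 1.55-fold.

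PPAT and PAICS are neighbours on chromosome 4, transcribed in opposite directions. In GENCODE 29 their most abundant coding transcripts, PPAT-201 and PAICS-201, start 134 bases apart, at 56435615 and 56435749, and PPAT rose while PAICS fell. The RefSeq table lists another window for PAICS, chr4:56410257-56410556, which does not hold the PAICS-201 start. The window is shown for that reason. It is the one listed for PPAT, chr4:56435566-56435865 (GRCh38.p14), written on the minus strand, and holds the starts of both transcripts, with capitals on its E-box CACGTG.
PPAT: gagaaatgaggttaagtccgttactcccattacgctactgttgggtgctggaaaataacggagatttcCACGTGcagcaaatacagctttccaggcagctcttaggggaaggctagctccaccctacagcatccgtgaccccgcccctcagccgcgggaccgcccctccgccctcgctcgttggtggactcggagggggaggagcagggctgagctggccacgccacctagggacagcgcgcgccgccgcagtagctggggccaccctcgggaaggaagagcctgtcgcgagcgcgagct
The E-box begins 182 bases before the PPAT start and lies downstream of the PAICS-201 start. PPAT levels were 25.9 ± 1.64 TPM in treated and 18.4 ± 1.43 TPM in control cells, and PAICS levels were 52.6 ± 1.86 TPM in treated and 141 ± 7.22 TPM in control cells.

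From the shared purine product, one branch leads to GMP and salvage returns bases to nucleotides. IMPDH2, the IMP dehydrogenase that proliferating cells use for guanine nucleotides (ENSG00000178035, chromosome 3 at 49024325 to 49029408), had 65.5, 64.4 and 64.7 CPM in treated cells, against 499, 466 and 488 CPM in control cells. It was 7.46-fold lower in treated cells, the deepest fall among the 39 genes, at a log2 fold change of −2.90 ± 0.033 (SE, adjusted p = 2.21e-20 in edgeR). IMPDH1, the other IMP dehydrogenase, had 80.8, 78.3 and 77.1 CPM in treated cells, against 121, 111 and 117 CPM in control cells and fell 1.48-fold. GMPS, which turns the IMPDH product into GMP, averaged 82.0 ± 2.09 CPM in treated and 163 ± 4.33 CPM in control cells and fell 1.99-fold. HPRT1, the salvage enzyme of hypoxanthine and guanine, had 7.88, 7.39 and 7.33 CPM in treated cells, against 19.1, 16.1 and 17.6 CPM in control cells. It fell 2.33-fold (adjusted p = 5.12e-11 in edgeR).

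In the pyrimidine branch, the early steps were again split. CAD, which carries the opening reactions in a single protein, averaged 108 ± 2.82 CPM in treated and 177 ± 1.18 CPM in control cells and fell 1.63-fold. DHODH, the enzyme of the inner mitochondrial membrane that makes orotate (ENSG00000102967, chromosome 16 at 72008588 to 72027664), had 65.3, 66.1 and 66.6 CPM in treated cells, against 33.4, 33.0 and 33.6 CPM in control cells. It rose 1.98-fold (adjusted p = 4.59e-14 in edgeR). UMPS, which turns orotate into UMP, averaged 98.8 ± 1.90 CPM in treated and 73.9 ± 2.06 CPM in control cells and rose by 0.42 on the log2 scale, and by 0.68 with limma on log2(TPM + 1). CTPS1, which makes CTP from UTP, had 98.0, 102 and 103 CPM in treated cells, against 159, 153 and 157 CPM in control cells and fell 1.55-fold. Its paralogue CTPS2 had 12.3, 11.6 and 13.2 CPM in treated cells, against 26.3, 26.0 and 26.0 CPM in control cells, a 2.11-fold fall (adjusted p = 6.22e-12 in edgeR).

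TYMS and TK1, of thymidylate synthesis and salvage, fell the most in this branch. TYMS, thymidylate synthase, which spends a folate one-carbon unit on dTMP (ENSG00000176890, chromosome 18 at 657604 to 673578), had 20.2, 21.1 and 20.7 CPM in treated cells, against 84.2, 78.6 and 82.8 CPM in control cells. The groups were far apart, and the fall was 3.96-fold (adjusted p = 2.87e-17 in edgeR). TK1, the cytosolic thymidine kinase of salvage, had 24.8, 28.2 and 27.3 CPM in treated cells, against 92.2, 88.9 and 93.0 CPM in control cells. It fell 3.41-fold (adjusted p = 6.84e-16 in edgeR). DTYMK, which phosphorylates dTMP further, averaged 41.4 ± 0.858 CPM in treated and 52.9 ± 0.904 CPM in control cells and fell by 0.35 on the log2 scale. DCK, the deoxycytidine kinase, averaged 20.1 ± 0.401 CPM in treated and 30.6 ± 1.97 CPM in control cells and fell 1.52-fold. ENOSF1, annotated on the opposite strand of TYMS, averaged 16.9 CPM in treated and 22.4 CPM in control cells, and the labels do not say whether reads were assigned by strand.

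The windows of TYMS and PRPS2 are shown because these are the 2 genes with falls of at least 2-fold whose window held the E2F-type motif TTTNNCGC, in capitals, which in TYMS reads on the opposite strand. They are chr18:657403-657702 and chrX:12791162-12791461 on the plus strand of GRCh38.p14.
TYMS: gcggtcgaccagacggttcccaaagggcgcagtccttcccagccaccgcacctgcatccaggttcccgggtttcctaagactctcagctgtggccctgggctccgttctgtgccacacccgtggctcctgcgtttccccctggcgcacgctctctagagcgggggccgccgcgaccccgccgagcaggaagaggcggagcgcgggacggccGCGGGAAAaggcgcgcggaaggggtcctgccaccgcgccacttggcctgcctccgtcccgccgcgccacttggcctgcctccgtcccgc
PRPS2: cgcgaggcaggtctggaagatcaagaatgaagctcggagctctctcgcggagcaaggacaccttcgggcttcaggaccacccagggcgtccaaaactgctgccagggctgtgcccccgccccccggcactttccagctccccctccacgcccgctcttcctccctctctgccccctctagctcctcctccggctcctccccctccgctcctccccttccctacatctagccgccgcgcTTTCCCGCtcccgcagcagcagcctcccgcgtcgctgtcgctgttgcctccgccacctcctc
Counted from the start in the RefSeq table, the motif begins 39 bases upstream in TYMS and 12 bases upstream in PRPS2. The GENCODE 29 starts of the most abundant coding transcripts, 657604 in TYMS and 12791370 in PRPS2, lie upstream of it in both windows. The other windows with it were those of DCK, which fell, and ALDH1L1, which did not pass. In TK1, the motif's letters were not in this window.

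In all, 7 pairs of paralogues were compared by the ratio of their TPM within each library. SHMT2 over SHMT1 was 29.2, 32.0 and 33.8 in the treated libraries, against 6.65, 6.76 and 6.75 in the control libraries. The mitochondrial gene was the higher in all 6 libraries, and the ratio was 4.70-fold higher in treated cells. MTHFD1L over MTHFD1 was 5.51, 6.37 and 9.04 in the treated libraries, against 2.83, 3.11 and 2.67 in the control libraries, also without overlap. MTHFD2L over MTHFD2 was 0.121, 0.119 and 0.124 in the treated libraries, against 0.0557, 0.0459 and 0.0465 in the control libraries. MTHFD2L thus stayed the lower of this pair in all 6 libraries, and with protein-coding transcripts only the log2 ratio was 0.39 lower in treated cells in place of higher.

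IMPDH1 over IMPDH2 was 0.900, 0.943 and 0.901 in the treated libraries, against 0.184, 0.183 and 0.179 in the control libraries. In control cells IMPDH2 had 189.9 ± 11.1 TPM, and in treated cells the 2 genes were near each other, at 25.5 ± 1.75 TPM for IMPDH1 and 27.9 ± 2.19 TPM for IMPDH2. PRPS2 over PRPS1 was 1.09, 1.07 and 1.11 in the treated libraries, against 1.85, 1.72 and 1.68 in the control libraries. CTPS2 over CTPS1 was 0.0687, 0.0545 and 0.0680 in the treated libraries, against 0.0799, 0.0952 and 0.0818 in the control libraries. ALDH1L2 over ALDH1L1 overlapped between groups, with ALDH1L1 too low for a firm ratio. An exact permutation test (two-sided) gave p = 0.1 for the 6 pairs without overlap, the smallest that 3 against 3 libraries allow, and 0.8 for ALDH1L2 over ALDH1L1 (0.117 and 0.8 adjusted over the 7 pairs by Benjamini-Hochberg).

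**Figure D3:**
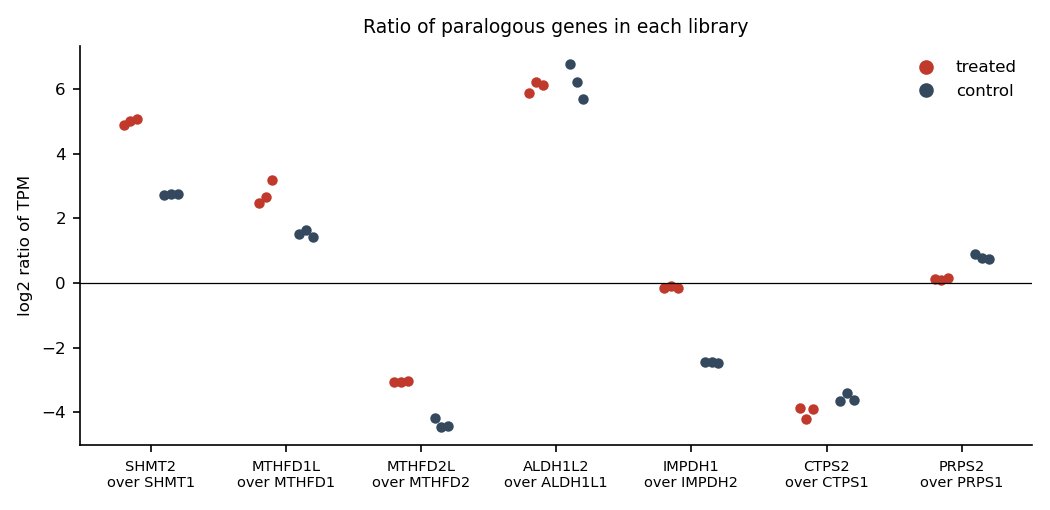
Log2 ratio of the TPM of 7 paralogous pairs (vertical axis) in each of the 3 treated and 3 control libraries, treated left of control. The treated libraries lie above the control libraries for SHMT2 over SHMT1, MTHFD1L over MTHFD1, MTHFD2L over MTHFD2 and IMPDH1 over IMPDH2, below them for CTPS2 over CTPS1 and PRPS2 over PRPS1, and among them for ALDH1L2 over ALDH1L1.

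The tables give each transcript, so the counts of a gene can be split by the class that GENCODE 29 gives its transcripts. Of 37 genes with both coding and other transcripts, the coding share was below control in every treated library for 14 and above it for 5, where 20.1% and 15.2% of 12236 genes tested were. The 5 were PPAT, SLC25A32, SHMT1, ALDH1L1 and AMT, the last 2 at only 0.575 and 1.82 CPM in treated cells. Small shifts count here too, as in SHMT1, with 94.2% in treated and 93.5% in control cells. PAICS, among the 14, had 99.1% in treated and 99.5% in control cells. Of 26 genes with transcripts annotated for nonsense-mediated decay, a surveillance route that destroys mRNAs with early stop codons, their share was higher in every treated library for 11 and lower for 3, where 20.8% and 8.37% of 6108 genes were. The 11 were PHGDH, SHMT2, ALDH1L2, GART, PFAS, ADSL, PRPS1, CTPS1, UMPS, DTYMK and DCK. Some of these shifts were small: UMPS had 70.9% in treated and 69.1% in control cells, and PRPS1 1.89% in treated and 0.414% in control cells. Estimates for single transcripts carry an error of read sharing that these files do not give.

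In SHMT2 the decay-annotated share was 21.0, 19.5 and 14.0% in treated cells, against 1.71, 2.01 and 1.16% in control cells. Much of it was 1 transcript, ENST00000557348, at 20.4, 18.9 and 17.8 TPM in treated cells, against 0.603, 0.750 and 0.210 TPM in control cells. The main coding transcript SHMT2-201 had 34.6, 27.9 and 32.7 TPM in treated cells, against 34.7, 32.7 and 28.8 TPM in control cells, which overlap, and with coding transcripts only the log2 fold change of SHMT2 was 0.36 in place of 0.70 and still passed. In ADSL the decay-annotated share was 33.0, 18.2 and 33.7% in treated cells, against 3.90, 5.62 and 7.06% in control cells. Its main coding transcript ADSL-201 had 5.01, 7.22 and 4.12 TPM in treated cells, against 20.7, 16.2 and 19.1 TPM in control cells, well apart, and the fall with coding transcripts only was 1.22 on the log2 scale in place of 0.83. In DTYMK the share was 21.1, 20.2 and 18.4% in treated cells, against 9.74, 10.4 and 12.2% in control cells, and in PFAS it was 13.8, 13.4 and 10.6% in treated cells, against 6.35, 6.43 and 6.22% in control cells.

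The rise of MTHFD2L sat mostly on 1 transcript. MTHFD2L-208, which GENCODE lists as a processed transcript without a coding frame, had 11.8, 10.5 and 10.5 TPM in treated cells, against 2.14, 2.33 and 1.70 TPM in control cells. It held 76.1% of the gene's counts in treated and 44.5% in control cells. The coding share of MTHFD2L was 12.1, 12.8 and 16.8% in treated cells, against 36.3, 36.0 and 28.9% in control cells. GLDC changed transcripts in a like manner: GLDC-220, a processed transcript, had 6.50, 6.33 and 5.91 TPM in treated cells, against 0.419, 0.260 and 0.127 TPM in control cells. GLDC-213, another processed transcript, had 0.186, 0 and 0 TPM in treated cells, against 3.23, 2.57 and 1.93 TPM in control cells. Coding transcripts held 7.19% of GLDC counts in treated and 9.62% in control cells. In ALDH1L2 the coding share was 66.9% in treated and 73.1% in control cells. With coding transcripts only, MTHFD2, MTHFD2L, GLDC and ALDH1L2 lost their calls, and AMT and ALDH1L1 did not reach the filter on low counts. The median log2 fold change of the cytosolic folate genes left was −1.03 in place of −0.61. The falls of IMPDH2, TYMS, TK1, PAICS, PRPS2 and SHMT1 stayed at least 2-fold under that setting. MTHFD1, HPRT1 and CTPS2 also fell at least 2-fold over all transcripts, and their changes under that setting are not reported here. Their coding shares were 42.6%, 76.5% and 99.6% in treated cells. In control cells these shares were 51.2%, 74.3% and 99.6%.

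**Figure D4:**
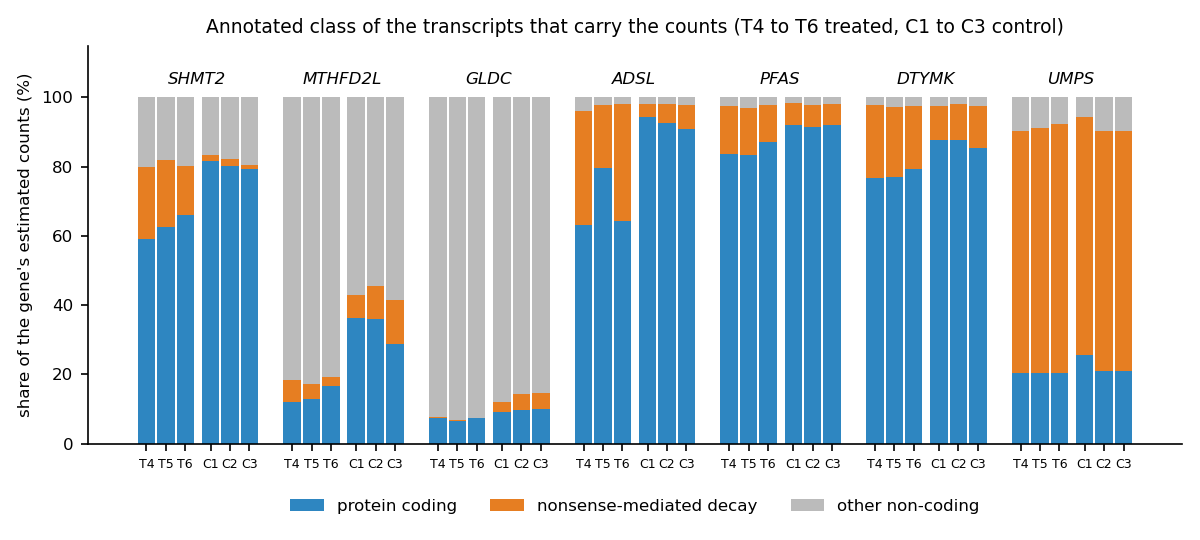
Share of a gene's estimated counts (vertical axis, percent) on protein-coding transcripts, transcripts annotated for nonsense-mediated decay and other non-coding transcripts, in treated libraries (T4 to T6) and control libraries (C1 to C3) for 7 genes. The decay-annotated part is larger in every treated library of SHMT2, ADSL, PFAS and DTYMK, and the other non-coding part in every treated library of MTHFD2L and GLDC; UMPS carries most of its counts on decay-annotated transcripts in both groups.

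Of the other genes of these pathways, listed beside the 39, the folate list had 3 rises and 4 falls among 9 tested (2 were below the filter). GGH, which trims the glutamate tails of folate, fell 2.22-fold. DHFR2 fell by 0.47 on the log2 scale, which did not pass once effective length was an offset (−0.07, adjusted p = 0.416 in edgeR). SLC46A1, the proton-coupled folate transporter, rose 1.21-fold, which did not pass there either (0.19, adjusted p = 0.41 in edgeR). The dimethylglycine dehydrogenase gene DMGDH was at 0.828 ± 0.216 CPM in treated and 0.166 ± 0.0815 CPM in control cells and rose.

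The 9 other serine and glycine genes held 5 rises and 2 falls, at a median log2 fold change of 1.08. The neutral amino acid carriers SLC1A5 and SLC1A4 rose 2.12-fold and 2.28-fold, with SLC1A5 at 483 ± 5.73 CPM in treated and 228 ± 2.98 CPM in control cells. SLC25A38, the mitochondrial glycine carrier, rose 2.23-fold. SFXN1, which takes serine into the mitochondria, averaged 61.9 ± 0.948 CPM in treated and 113 ± 2.10 CPM in control cells and fell 1.82-fold. GCAT, which splits a threonine product into glycine, fell 2.05-fold.

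The 16 other purine genes held 6 rises and 6 falls, at a median of −0.01. XDH, the xanthine dehydrogenase that ends purine breakdown, averaged 86.9 ± 2.27 CPM in treated and 3.45 ± 0.547 CPM in control cells and rose 25.2-fold. PNP, the nucleoside phosphorylase of breakdown and salvage, rose 1.88-fold, and the AMP deaminase AMPD3 rose 2.25-fold at a low level. ADSS2, which opens the branch from IMP to AMP, averaged 47.5 ± 1.66 CPM in treated and 108 ± 2.88 CPM in control cells and fell 2.28-fold. Adenosine deaminase ADA fell 3.06-fold and adenine phosphoribosyltransferase APRT 1.24-fold. The call of APRT ended with protein-coding transcripts only (adjusted p = 0.0843 in edgeR).

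The 19 other pyrimidine and deoxynucleotide genes held 8 rises and 10 falls, at a median of −0.21. UPP1, uridine phosphorylase, which splits uridine for reuse or breakdown, averaged 183 ± 2.12 CPM in treated and 26.3 ± 0.240 CPM in control cells and rose 6.97-fold (adjusted p = 3.37e-20 in edgeR). DCTD, the dCMP deaminase, rose 1.52-fold, and RRM2B, the ribonucleotide reductase subunit used outside S phase, rose 1.25-fold. RRM1, the large subunit of ribonucleotide reductase, averaged 51.1 ± 1.87 CPM in treated and 155 ± 3.32 CPM in control cells and fell 3.04-fold. CMPK1, the UMP and CMP kinase, fell 1.80-fold and DUT, which removes dUTP, 1.92-fold.

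Of the 39 genes, 23 overlap another annotated gene, 20 of them on the opposite strand, and 14 have annotated pseudogenes of their name (44 in all). The highest of these pseudogenes was IMPDH1P8, with 4.25 CPM in treated and 1.67 CPM in control cells, and GCSHP5 had 0.143 CPM in treated and 1.20 CPM in control cells. SGSM3, which runs in the same direction as ADSL and overlaps it, averaged 6.20 CPM in treated and 16.6 CPM in control cells. SMCR8, opposite SHMT1, averaged 232.7 CPM in treated and 108.9 CPM in control cells, rising where SHMT1 fell.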

How the data were processed

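Total RNA of 6 A375 cultures was sequenced on an Illumina platform, per the labels. The authors deposited, per the file headers, a table of transcripts for each library with estimated counts (expected counts, not whole and not scaled between libraries), TPM (scaled by effective length within a library), length and effective length. Per the submitters' processing notes, the tools were kallisto 0.45.0 and DESeq2 1.30.0, with no role stated. The genome build and transcript index are not given in the sources used here.

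Of 244939 transcripts, 203436 matched GENCODE 29 (GRCh38) by identifier. Unmatched transcripts held 4.86% to 5.13% of a library's counts and were left out, so a gene's level may be a part of its total. Estimated counts were summed to genes and rounded, low genes were removed (filterByExpr, count 10 and total 15) and TMM factors were computed. The test was edgeR's robust quasi-likelihood F (version 4.0.16, two-sided), with Benjamini-Hochberg over 22580 genes and a threshold of 0.05. SE is the log2 fold change divided by the square root of F. The common biological coefficient of variation was 0.074. The fit was tested on simulated counts in which every gene had this variation and no error of read sharing was added. Genes with a larger spread were not covered by that test. Alternatives used DESeq2 1.42.0, limma 3.58.1 on log2 TPM, an offset for effective length (which exceeded the length for 25.7% to 27.1% of transcripts), protein-coding transcripts only, other filters and scalings, and each library left out. Estimated counts carry the error of read sharing as well as counting error.

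All 39 genes are reported. Values of every library are given for genes with a change of at least 2-fold, for paralogue pairs and for the gene with the largest change of each branch. PHGDH, PPAT and DHODH were added after their values were seen. Of each further list, up to 3 rises and 3 falls with the lowest adjusted p are named. Some of the genes this picks are not reported here. The genes, lists and tests were chosen with earlier results of these data known. The count of decay-annotated transcripts was added after the data were seen. Replicate numbers differ between the groups and no block was fitted.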

Additional observations from a re-analysis of the deposited data

How the results depend on the processing

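The 39 genes were refitted under 15 alternatives, giving 582 values. Of these, 549 kept the direction and the side of the threshold, and 31 genes did so under every alternative other than the 1.5-fold requirement. With 1.5-fold required, 4223 of all genes were higher and 3764 lower, and 5 of the 39 were higher, with 1 serine, 3 mitochondrial folate, 0 purine and 1 pyrimidine rise, and 1 mitochondrial and 4 pyrimidine falls. With protein-coding transcripts only, 3 mitochondrial folate genes rose. With an offset for effective length, 1 cytosolic folate gene, ALDH1L1, rose (0.84, adjusted p = 0.0287 in edgeR). The cause was not tested in these cases. Without 1 library, 13 to 14 of the 39 rose and 22 fell, among all genes 7755 to 7899 rose and 7189 to 7500 fell, and branch counts did not change except for 7 to 8 rises in mitochondrial folate.

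FPGS turned to 0.00685 with library totals and to 0.0755 and 0.0775 with limma (1 and 0.1 added to TPM). PFAS turned to 0.0415 with library totals, 0.15 with the length offset, 0.25 and 0.26 with limma (1 and 0.1 added) and 0.00184 without treated replicate 5 (−0.0536 to 0.00184 without 1 library). DHFR2 turned to 0.0309 and 0.037 with limma (1 and 0.1 added), and NFE2L2 to −0.0582 with the length offset.

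The log2 ratio difference (treated minus control) of SHMT2 over SHMT1, 2.23, was 1.82 with protein-coding transcripts only. That of MTHFD1L over MTHFD1, 1.25, was 1.55 from scaled counts per kilobase and 1.84 with protein-coding transcripts only. That of MTHFD2L over MTHFD2 was 1.46 and −0.39. That of ALDH1L2 over ALDH1L1, −0.165, was 0.13 from scaled counts per kilobase. Without 1 library the ranges were 2.19 to 2.29 for SHMT2 over SHMT1, 1.05 to 1.40 for MTHFD1L over MTHFD1, 1.25 to 1.39 for MTHFD2L over MTHFD2, −0.43 to 0.11 for ALDH1L2 over ALDH1L1 (0.11 without control replicate 1), 2.31 to 2.34 for IMPDH1 over IMPDH2, −0.49 to −0.32 for CTPS2 over CTPS1 and −0.71 to −0.64 for PRPS2 over PRPS1. No paired analysis was possible because the groups share no replicate number. Depth limits AMT and ALDH1L1, at means under 2 CPM.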

Other observations

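Of the transcription factors known to act on these genes, MYC, E2F1 and ATF4 moved as well, while the change of NFE2L2 was small. MYC, which drives purine and pyrimidine synthesis genes in many cells, averaged 101 ± 7.93 CPM in treated and 16.5 ± 2.21 CPM in control cells and rose 6.13-fold (adjusted p = 2.56e-05 in edgeR). E2F1, a factor of the G1/S transition, averaged 13.7 ± 0.732 CPM in treated and 62.5 ± 1.08 CPM in control cells and fell 4.57-fold. ATF4 averaged 14.6 ± 1.62 CPM in treated and 9.67 ± 1.63 CPM in control cells and rose 1.51-fold. NFE2L2, which encodes NRF2, averaged 63.7 ± 1.26 CPM in treated and 59.8 ± 2.31 CPM in control cells, a 1.07-fold rise (adjusted p = 0.0391 in edgeR). It did not pass with limma or with the length offset, nor when control replicate 2 (adjusted p = 0.121 in edgeR) or 3 (0.101) was left out. Protein levels were not measured, and no link between these levels and the 39 genes was tested.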
